A study of Mus musculus with 15 samples.

Results

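Iron storage, transport and heme synthesis were followed through 9 genes: Fth1, Ftl1, Tfrc, Slc40a1, Slc11a2, Trf, Alas1, Fech and Hmox1. They were picked by symbol as the main genes of ferritin, of iron uptake and export, and of the making and breaking of heme, and each matched 1 row of the 47069 genes in the table. All 9 averaged 1 TPM or more and so entered the tests. TPM, the unit of all levels given here, is an abundance per transcript length, scaled so that each library sums to 1000000, so levels of different genes can be set side by side.

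The libraries came from male C57BL/6 mice aged 2 months, with no genotype or treatment named beyond that. Single proximal tubules labelled PTS2, cut out of the kidney by hand, gave 12 libraries in 3 sets of 4 named m1, m2 and m3, and whole kidney gave 3. The series asks how genes selective for single renal cell types show up in RNA-Seq of the whole organ. The labels say neither what m stands for nor whether libraries of a set or of the kidney group came from separate animals, so the p-values measure the spread between these libraries, which may be partly technical.

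Iron inside a cell is held in ferritin, a hollow shell of heavy chains (Fth1), which oxidise iron, and light chains (Ftl1), which help it to mineralise. Transferrin (Trf) carries iron in the blood, the transferrin receptor (Tfrc) takes it into the cell, Slc11a2 (DMT1) moves it across membranes and ferroportin (Slc40a1) is the exporter. Heme synthesis begins with Alas1, the rate-limiting enzyme outside red cell precursors, and ends with ferrochelatase (Fech), which inserts iron, while heme oxygenase 1 (Hmox1) breaks heme open and frees the iron. The proximal tubule takes up filtered iron-carrying proteins, and its mitochondria need much heme.

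Several of these messages carry an iron-responsive element, a short hairpin bound by the iron regulatory proteins when iron is low. In a 5′ UTR the bound hairpin blocks translation, and in the 3′ UTR of Tfrc it protects the message from decay. The hairpins are shown because control through them acts at translation for ferritin and ferroportin and on the amount of RNA for Tfrc. A search of GENCODE M21 transcripts (GRCm38.p6) looked for a C, 5 bases, the loop CAGTGN and then 5 bases that pair with those before the loop. It found a match in 4 of the 9 genes, and in 369 of 21951 protein-coding genes (1.68%). Capitals mark the loop, and the sequences read 5′ to 3′ on the gene's strand, with T for U.
Fth1 (5′ UTR, chr19:9982733-9982759, plus strand): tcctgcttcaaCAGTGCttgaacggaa
Ftl1 (5′ UTR, chr7:45459780-45459806, minus strand): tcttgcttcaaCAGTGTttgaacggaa
Slc40a1 (5′ UTR, chr1:45925466-45925492, minus strand): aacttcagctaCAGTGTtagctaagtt
Tfrc (3′ UTR, chr16:32631220-32631246, plus strand): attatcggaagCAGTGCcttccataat
Tfrc (3′ UTR, chr16:32631599-32631625, plus strand): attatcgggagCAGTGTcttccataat
Tfrc (3′ UTR, chr16:32631664-32631690, plus strand): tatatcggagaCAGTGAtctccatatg
Tfrc (3′ UTR, chr16:32631711-32631737, plus strand): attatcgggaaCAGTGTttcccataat
A match is a description of the letters and not a measured site. Hairpins of other forms were not searched, so a member without a match is not thereby outside such control. TPM measure RNA only, so translational control through the hairpins of Fth1, Ftl1 and Slc40a1 was not measured here.

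The labelled segment was checked with marker genes. Summed S3 markers (Slc7a13, Slc22a7, Atp11a) lay between 2469 and 4418 TPM in the PTS2 libraries and between 1232 and 1658 in whole kidney. The summed S2 markers (Slc22a6, Slc22a8) lay between 368 and 1149 TPM in PTS2, around the kidney range of 719 to 781. The S2 genes differed from each other. Slc22a8 was lower in every PTS2 library, at 24.7 to 161 TPM against 261 to 284 in kidney. Its log2 difference was -2.21 (limma adjusted p = 0.00088), while Slc22a6 was not called (0.17, limma adjusted p = 0.670). The summed S1 markers were between 36.3 and 79.9 TPM against 818 to 892. Each S3 gene was called higher in PTS2, Slc22a7 by 1.84, Slc7a13 by 1.22 and Atp11a by 0.62 on the log2 scale (limma adjusted p = 1.19e-05, 2.81e-07 and 0.00898). Of the 8 proximal tubule markers, Slc27a2 was called higher (0.98), Slc4a4 lower (-1.29) and the others neither. The markers thus put the tubules in the proximal tubule past S1, where they lean to S3 rather than S2 without settling the segment. Thick ascending limb markers summed to 1441 TPM in m3 replicate 3 and to at most 55.8 in the other PTS2 libraries, against 2425 to 2723 in kidney. Results that lose their call without that library are named as such.

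Ferritin, the store, had by far the highest levels of the 9 genes. Fth1 was the 2nd most abundant gene of PTS2 by mean TPM and the 4th of whole kidney, and Ftl1 was the 24th and the 11th. In PTS2 tubules the heavy chain was slightly higher and the light chain lower than in whole kidney. With TPM as deposited the summed ferritin message was thus alike in level but differed in its make-up. The sum was not tested under the other scalings given below. Transferrin and ferroportin transcripts were far lower in tubules than in kidney, and Tfrc was lower too. The heme genes Alas1, Fech and Hmox1 and the iron carrier Slc11a2 did not pass the test. Of the 9 genes, 5 passed the test between PTS2 and whole kidney, where 51.2% of the 12039 genes tested did. One direction was more common than the other: 1 member was higher in PTS2 (9.68% of all genes) and 4 were lower (41.5% of all genes), with a member median of -0.01 on the log2 scale against -0.27 over all genes. That is near the background, so the count says little about iron genes as a group, and the values of each gene carry the result.

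The test was limma on log2(TPM + 1), a scale that understates the change of low genes, with Benjamini-Hochberg adjustment over all genes tested. A gene was called at an adjusted p under 0.05. The share of calls that were higher in PTS2 depended on the scaling of the columns: 18.9% with TPM as deposited, 50.7% with median-of-ratios rescaling and 64.7% with quantile normalization. The median difference over all genes was 0.00 and 0.16 under the last 2 scalings. In bulk samples such as these, fewer cells of a type and less RNA per cell cannot be told apart.

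**Figure D1:**
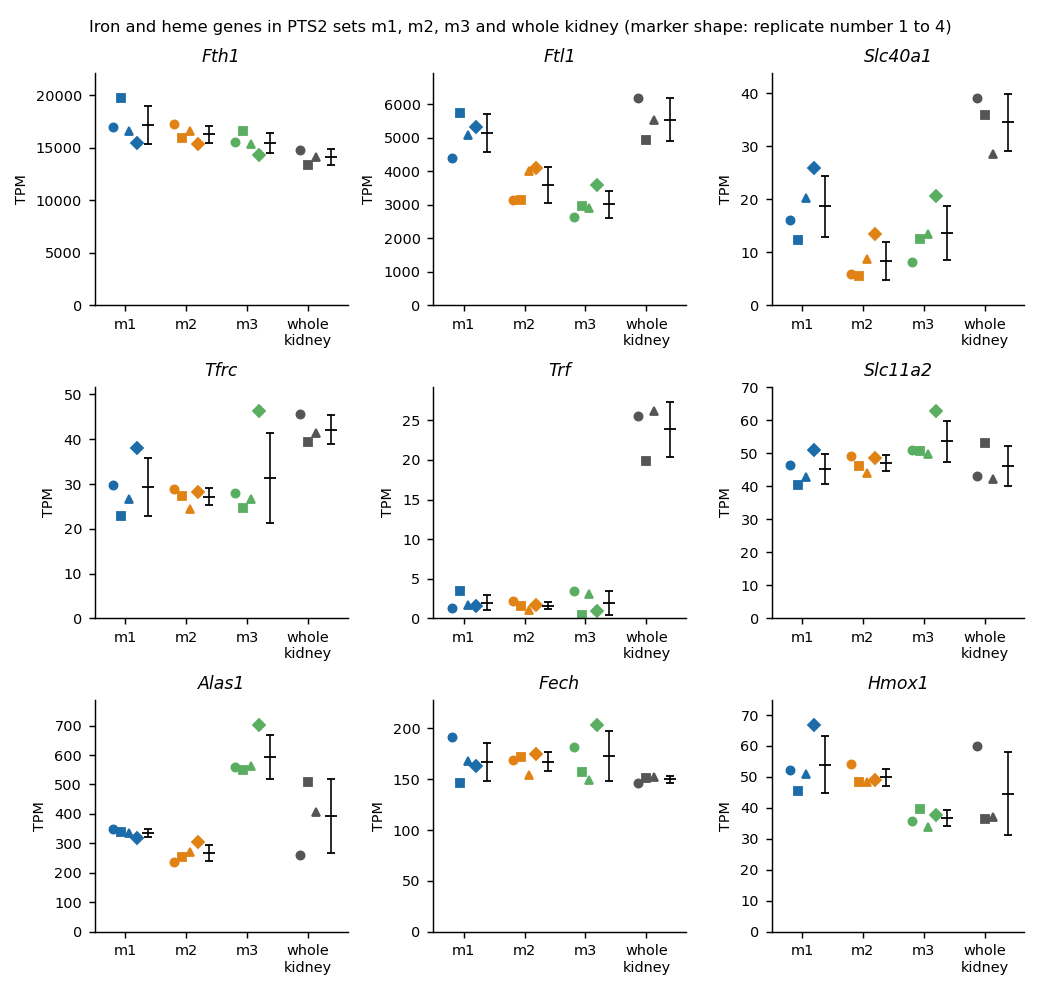
TPM (vertical axes, linear from 0) of the 9 genes in each library of sets m1, m2 and m3 and of whole kidney. Marker shape gives the replicate number, and the bars are the group mean and SD (n = 4 per set, n = 3 for kidney). Trf and Slc40a1 are the panels in which all kidney points lie above all PTS2 points, and in the Alas1 panel m3 stands above m1 and m2.

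Fth1, the ferritin heavy chain (chromosome 19, 9980598 to 9985098, plus strand), ranged over the 12 PTS2 libraries from 14304 to 19754 TPM with a median of 16240.0. The kidney libraries held 14837, 13380 and 14173 TPM. Only m3 replicate 4 fell inside the kidney range, and the other 11 PTS2 libraries lay above it. The means were 16319 ± 1369 TPM (SD, n = 12) and 14130.0 ± 729.5 (SD, n = 3). On the log2 scale PTS2 was 0.20 ± 0.08 (SE) higher, with a limma adjusted p of 0.046. The call was narrow: leaving out single libraries ended it in 10 cases, among them m3 replicate 3 (adjusted p = 0.0502) and each kidney library (adjusted p = 0.0639, 0.193 and 0.110 without replicates 1, 2 and 3). Both other scalings gave larger differences, 0.50 and 0.56, and kept the call.

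Ftl1, the light chain (chromosome 7, 45457944 to 45459884, minus strand), ranged from 2642 to 5754 TPM in PTS2 with a median of 3797. The kidney libraries held 6187, 4928 and 5520 TPM. Every library of m2 and m3 lay below all 3 kidney libraries, while 3 of the 4 m1 libraries were inside the kidney range. The means were 3915 ± 1042 TPM (SD, n = 12) and 5545 ± 629.9 (SD, n = 3). The log2 difference was -0.54 ± 0.20 (limma adjusted p = 0.0308), and the call was lost without kidney replicate 1 (adjusted p = 0.131), without kidney replicate 3 (0.0828) and with median-of-ratios rescaling (-0.25, adjusted p = 0.400). With quantile normalization it was -0.74 (adjusted p = 0.00126).

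The ratio of Fth1 to Ftl1 within a library is not changed by a scaling that multiplies the whole library by 1 factor. Quantile normalization is not of that kind, and the ratio was not tested under it. With TPM as deposited the ratio was 2.40, 2.71 and 2.57 in the kidney libraries, a mean of 2.56 ± 0.159 (SD, n = 3). In PTS2 it ran from 2.91 to 5.88 with a median of 4.06 and a mean of 4.40 ± 1.03 (SD, n = 12). All 12 tubule libraries lay above all 3 kidney libraries. The mean log2 ratio differed by 0.75 (two-sided exact permutation test, p = 0.0022, the smallest that the arrangements allow, adjusted p = 0.00659 over 3 ferritin measures). With 1 mean per set the same difference gave an exact p of 0.1, the smallest that 20 arrangements allow. The sum of both chains was 20234 ± 2086 TPM in PTS2 (SD, n = 12) and 19675 ± 1358 in kidney (SD, n = 3), which is 2.02% and 1.97% of all TPM. The sums overlapped, and their mean log2 difference was 0.04 with TPM as deposited. Median-of-ratios rescaling moved both chains up, to 0.50 for Fth1 and -0.25 for Ftl1. Quantile normalization gave 0.56 and -0.74. The sum was not tested under either, so its likeness holds for TPM as deposited.

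**Figure D2:**
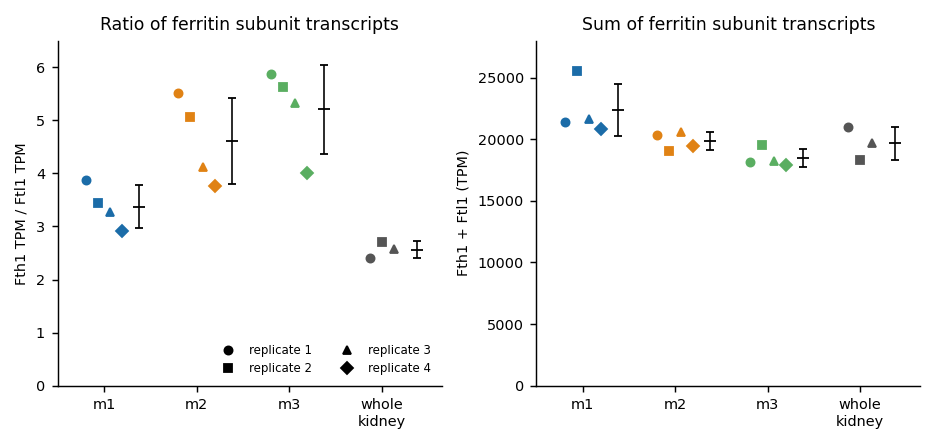
Left, the Fth1 to Ftl1 ratio of TPM in each library, and right, the sum of both in TPM, for sets m1, m2, m3 and whole kidney. Both axes are linear from 0, marker shape gives the replicate number, and the bars are mean and SD (n = 4 per set, n = 3 for kidney). The kidney ratios, 2.40 to 2.71, lie below every tubule ratio, and in each set replicate 1 is highest and replicate 4 lowest. The sums overlap.

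The Ftl1 row shares its exon with another row. Gm22133, annotated as a 109-base miRNA gene (chr7:45458089-45458197), lies on the same strand wholly inside an exon of Ftl1, and reads from that stretch can be given to either. Its level was 2037 to 5705 TPM in PTS2 and 3573 to 4453 in kidney. Weighted by length, this is 8.64% to 12.1% of Ftl1 in PTS2 and 8.10% to 8.60% in kidney. Adding it to the light chain, an alternative chosen after seeing the data, left the log2 difference of the ratio at 0.72 (exact permutation p = 0.0022). The separate ferritin pseudogene rows were small beside Fth1 and Ftl1, with at most 9.23 TPM on average in PTS2 and 13.7 in kidney (both Ftl1-ps1).

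For iron entry, Tfrc, the transferrin receptor (chromosome 16, 32608920 to 32632794, plus strand), ranged from 22.9 to 46.2 TPM in PTS2 with a median of 27.7. Kidney held 45.6, 39.5 and 41.4 TPM. The highest tubule library, m3 replicate 4, lay above all of kidney, and the other 11 tubule libraries lay below all of it. The means of 29.3 ± 6.53 TPM (SD, n = 12) and 42.2 ± 3.14 (SD, n = 3) gave a log2 difference of -0.53 ± 0.16 (limma adjusted p = 0.0112). The call was lost without kidney replicate 1 (adjusted p = 0.0606) and with both other scalings (-0.25 and -0.27, adjusted p = 0.174 and 0.115).

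Slc11a2, the DMT1 transporter (chromosome 15, 100387898 to 100425072, minus strand), ranged from 40.5 to 62.8 TPM in PTS2 with a median of 48.9. Kidney held 43.1, 53.1 and 42.2 TPM, inside that range. The difference was 0.07 ± 0.10 (limma adjusted p = 0.577) with TPM as deposited, and was called with median-of-ratios rescaling (0.36, adjusted p = 0.0018) and with quantile normalization (0.29, adjusted p = 0.00912). No iron-responsive element of the searched form was found in the annotated transcripts of Slc11a2. The search required an unbroken stem, so this does not place the gene outside control through iron.

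Trf, transferrin itself (chromosome 9, 103204001 to 103230444, minus strand), is chiefly a liver product that reaches the tubule with the blood and filtrate. It was 0.47 to 3.46 TPM in PTS2 with a median of 1.585, and 25.6, 19.9 and 26.1 TPM in kidney. The groups were far apart: the kidney mean of 23.9 ± 3.48 (SD, n = 3) was 12.8 times the PTS2 mean of 1.86 ± 0.996 (SD, n = 12). The log2 difference was -3.19 ± 0.29 (limma adjusted p = 1.2e-07), and -2.92 and -2.73 under the other scalings, both called.

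For iron exit, Slc40a1, ferroportin (chromosome 1, 45908068 to 45926523, minus strand), ranged from 5.51 to 25.9 TPM in PTS2 with a median of 12.9. Kidney held 39.1, 35.9 and 28.6 TPM. No tubule library reached the lowest kidney library, and the kidney mean of 34.5 ± 5.41 (SD, n = 3) was 2.55 times the PTS2 mean of 13.5 ± 6.28 (SD, n = 12). The log2 difference was -1.41 ± 0.35 (limma adjusted p = 0.00301), and it was called under both other scalings (-1.12 and -1.08). Trf and Slc40a1 were the 2 members of 9 whose libraries did not overlap between the groups, against 37.8% of all genes tested.

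Markers of other cells were also lower in PTS2 than in whole kidney. Other parts of the nephron showed this too, with every listed gene lower in all tubule libraries than in any kidney library. That held for 5 thick ascending limb genes, 3 of the distal convoluted tubule, and 4 each of principal cells, intercalated cells and podocytes. Macrophages, which export iron through ferroportin, have 7 genes in their list. Of these, 6 were lower in every tubule library than in any kidney library. All 7 together summed to 25.2 to 80.7 TPM in PTS2 against 103 to 142 in kidney. Csf1r was the exception, at 15.0 to 69.7 TPM in PTS2 and 18.3 to 23.5 in kidney. Csf1r made up most of the sum in every PTS2 library, so the sum understates how much lower the other genes were. Endothelial markers summed to 21.5 to 86.7 TPM against 275 to 282, with 6 of 6 genes lower. Red blood cell markers summed to 0.23 to 1.41 against 248 to 580, with 5 of 6 genes lower, and interstitial markers to 0.91 to 6.01 against 116 to 129, with 6 of 6 lower. None of these lists was at 0 throughout PTS2 in any gene, and their part in the differences of Trf, Slc40a1, Tfrc and Ftl1 was not tested.

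Among the heme genes, Alas1 (chromosome 9, 106233455 to 106248654, minus strand) spanned 238 to 703 TPM in PTS2 with a median of 336. Kidney held 260, 510 and 406 TPM. The kidney libraries also spread widely and all lay inside the tubule range. The difference was -0.01 ± 0.28 (limma adjusted p = 0.976), with its sign changed by median-of-ratios rescaling (0.28, adjusted p = 0.421). The spread inside PTS2 follows the sets and is described with them below.

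Fech (chromosome 18, 64452914 to 64490251, minus strand) was 146 to 204 TPM in PTS2 with a median of 168, and 146, 151 and 152 TPM in kidney. The lowest tubule library was level with kidney and most lay above. The difference was 0.17 ± 0.09 (limma adjusted p = 0.123) with TPM as deposited, and it was called with median-of-ratios rescaling (0.46, adjusted p = 4e-05) and quantile normalization (0.20, adjusted p = 0.0282).

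Hmox1 (chromosome 8, 75093621 to 75100589, plus strand), the inducible heme oxygenase, was 33.8 to 66.9 TPM in PTS2 with a median of 48.3. Kidney held 60.0, 36.4 and 37.2 TPM. The groups overlapped over most of their range, and the difference was 0.09 ± 0.17 (limma adjusted p = 0.699).

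**Figure D3:**
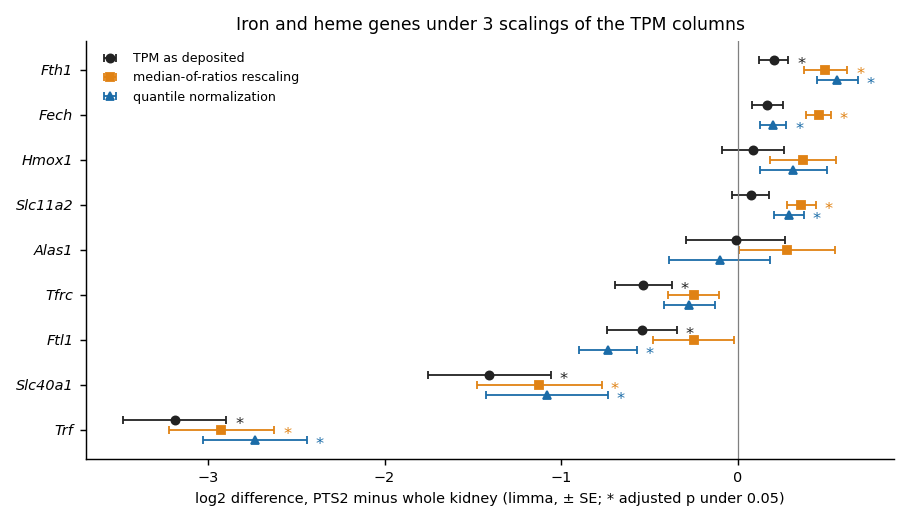
log2 difference of PTS2 minus whole kidney (horizontal axis, limma estimate with SE bars) for the 9 genes with TPM as deposited, median-of-ratios rescaling and quantile normalization; a star marks an adjusted p under 0.05. Trf, Slc40a1 and Fth1 are called under all 3 scalings, Ftl1 under 2, Fech and Slc11a2 under the 2 rescalings, and Tfrc with TPM as deposited.

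The scalings sorted the members into groups. Slc40a1 and Trf were lower and Fth1 was higher in PTS2 under all 3. Calls on Tfrc, Ftl1, Fech and Slc11a2 depended on the scaling, with no change of sign. Alas1 and Hmox1 were called under none.

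The 3 PTS2 sets differed in Alas1, Ftl1 and Hmox1. Alas1 was highest in m3, while Ftl1 and Hmox1 were lower in m3 than in m1. The limma F test over the 3 sets called 3 of the 9 members, Alas1, Ftl1 and Hmox1, where 3.02% of the 11300 genes tested were called. In m3 minus m1, 3 of 9 members were called (3.17% of all genes), 1 higher and 2 lower. Of all calls in that contrast, 70.4% were higher in m3, or 54.6% with median-of-ratios rescaling and 52.8% with quantile normalization. In m3 minus m2, 1 of 9 was called (1.97% of all genes), and in m2 minus m1 none of 9 was (0.54% of all genes). In that last contrast Alas1, Ftl1 and Slc40a1 had limma p-values under 0.05 before adjustment (0.00314, 0.000947 and 0.00297).

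Alas1 gave the clearest difference. It was 350, 337, 334 and 320 TPM in m1, 238, 255, 270 and 305 in m2, and 558, 550, 561 and 703 in m3, in the order of the replicate numbers. Every m3 library lay above every m1 library, and every m1 library above every m2 library. The set means were 335 ± 12.4, 267 ± 28.3 and 593 ± 73.4 TPM (SD, n = 4 each), so that m3 was 1.77 times m1 and 2.22 times m2. The log2 differences were 0.81 ± 0.09 for m3 minus m1 (limma adjusted p = 0.00047) and 1.15 ± 0.09 for m3 minus m2 (1.67e-05), and the F test gave an adjusted p of 3.77e-05. It was called with every library left out in turn and under all 3 scalings. The other genes of heme synthesis did not follow: none of the 6 tested among the sets was called, and Fech averaged 167 ± 18.7 TPM in m1, 167 ± 9.09 in m2 and 173 ± 24.7 in m3 (SD of 4 libraries, limma F test adjusted p = 0.955).

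Ftl1 was 4388, 5754, 5080 and 5329 TPM in m1, 3129, 3137, 4018 and 4092 in m2, and 2642, 2953, 2887 and 3576 in m3. All m1 libraries lay above all libraries of m2 and m3, which overlapped each other. The set means were 5137 ± 572, 3594 ± 533 and 3015 ± 398 TPM (SD, n = 4 each). The difference m3 minus m1 was -0.77 ± 0.12 (limma adjusted p = 0.00448), m2 minus m1 was -0.52 ± 0.12 (adjusted p = 0.101), and the F test gave an adjusted p of 0.00794. Fth1 showed no such step, at 17221 ± 1807, 16279 ± 799.9 and 15457 ± 944.7 TPM (limma F test adjusted p = 0.569). Gm22133 inside the Ftl1 exon was called with Ftl1, at -0.95 for m3 minus m1 (limma adjusted p = 0.00377).

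The ferritin ratio therefore also differed among the sets. It was 3.88, 3.43, 3.27 and 2.91 in m1, 5.51, 5.07, 4.13 and 3.76 in m2, and 5.88, 5.63, 5.32 and 4.00 in m3, in the order of the replicate numbers. The means were 3.37 ± 0.404, 4.62 ± 0.810 and 5.21 ± 0.837 (SD, n = 4 each). The sets differed beyond the spread within them (exact permutation test over 5775 partitions, p = 0.0197, adjusted p = 0.0296 over 3 ferritin measures), and m3 minus m1 was 0.62 on the log2 scale. Without m1 replicate 4 the exact permutation p was 0.061. In each set the library numbered 1 had the highest ratio and the library numbered 4 the lowest. The summed S3 markers stood in the same places, with 4098, 4418 and 4296 TPM in the libraries numbered 1 of the sets m1 to m3 and 2469, 3053 and 3393 in those numbered 4, the highest and the lowest of each set. Each of the 3 S3 genes was highest in the library numbered 1 of every set, but only Slc22a7 was lowest in every library numbered 4. Atp11a there was 458 TPM in m1 and 714 in m3, below only the library numbered 1. Slc7a13 was lowest in the library numbered 3 of m2. The part of the S3 markers in the ratio was not tested.

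Hmox1 was 52.3, 45.3, 51.1 and 66.9 TPM in m1, 54.1, 48.3, 48.3 and 48.9 in m2, and 35.8, 39.5, 33.8 and 37.8 in m3. All m3 libraries lay below all libraries of m1 and m2. The set means were 53.9 ± 9.19, 49.9 ± 2.80 and 36.7 ± 2.47 TPM (SD, n = 4 each), with m3 minus m1 at -0.53 ± 0.11 (limma adjusted p = 0.0177) and an F test adjusted p of 0.0281. The F test call was lost without m1 replicate 3, m2 replicate 2 or any 1 library of m3 (adjusted p between 0.0521 and 0.107, the highest without m3 replicate 3), and the m3 minus m1 call without m3 replicate 1 (0.0625) or m3 replicate 3 (0.0629). With no filter on low values both calls were lost (adjusted p = 0.0796 and 0.0526), and without the mean-variance trend the F test call was (0.0514). Among the neighbours of Hmox1 in heme breakdown, none of the 8 other genes of heme transport and breakdown was called among the sets.

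Slc40a1 was 16.2, 12.3, 20.2 and 25.9 TPM in m1, 5.81, 5.51, 8.72 and 13.4 in m2, and 8.14, 12.4, 13.4 and 20.6 in m3. The library numbered 4 was the highest of each set, and the sets overlapped. Among libraries of the same number, that of m2 was the lowest each time. The F test gave a limma adjusted p of 0.143, and m2 minus m1 was -1.10 ± 0.30 (adjusted p = 0.166). In an alternative limma fit with the replicate number as a block, the adjusted p of the F test was 0.0023. There m2 minus m1 had 0.00245 and m3 minus m2 0.0259. The labels tie the numbers to nothing shared, so the fit without the block was kept as the main one. The S2 markers were also highest in the libraries numbered 4, at 1149 TPM in m1, 892 in m2 and 1024 in m3. Their part in the level of Slc40a1 was not tested.

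Tfrc, Slc11a2 and Trf were not called among the sets. The mean of Tfrc was 29.3 ± 6.43 TPM in m1, 27.2 ± 1.91 in m2 and 31.4 ± 9.99 in m3 (SD of 4 libraries, limma F test adjusted p = 0.86). Slc11a2 averaged 45.2 ± 4.64, 47.0 ± 2.38 and 53.6 ± 6.11 TPM (adjusted p = 0.34), with all m3 libraries above all m2 libraries. Trf averaged 1.99 ± 0.987, 1.62 ± 0.495 and 1.97 ± 1.52 TPM (adjusted p = 0.955).

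The genes most like each called member over the 12 tubule libraries were looked up among 6446 genes averaging 10 TPM or more. The points include differences between sets, and the labels do not say whether libraries of a set share an animal, so these correlations describe the table and carry no test. Nearest to Alas1 were Dbp, a clock output transcription factor (Pearson r = 0.980, with a mean of 35.2 TPM in m1, 18.8 in m2 and 85.0 in m3), St8sia1 (r = 0.966) and Parp10 (r = 0.964). Nearest to Ftl1 were Gm22133 inside its own exon (r = 0.964), Tmem37 (r = 0.960) and Tsc22d1 (r = 0.953). Hmox1 had looser neighbours, Ndrg1 (r = 0.883), Prdx3 (r = 0.878) and Ddc (r = 0.875). Ndrg1, a stress-responsive gene, had set means of 1451, 1301 and 755 TPM.

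Around the 9 genes stands a wider iron and heme network, taken from lists of 78 symbols by role, of which 74 were in the table and 60 passed the filter against whole kidney. Alas2, Lcn2 and Heph averaged under 1 TPM in PTS2 and passed only through whole kidney, where they are high, so they are given by their values and left out of the counts. Of the other 57, 19 were higher and 17 lower in PTS2, with a median of 0.06 against -0.27 over all genes. With median-of-ratios rescaling 32 were higher and 8 lower, and with quantile normalization 28 and 10. Over all genes tested, 9.68% were higher and 41.5% lower with TPM as deposited. With median-of-ratios rescaling 2826 of 11919 genes were higher and 2751 lower. With quantile normalization 4164 of 12039 were higher and 2273 lower. The counts by role below are a description beside the background of the same scaling, since no test compared one role with another.

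**Figure D4:**
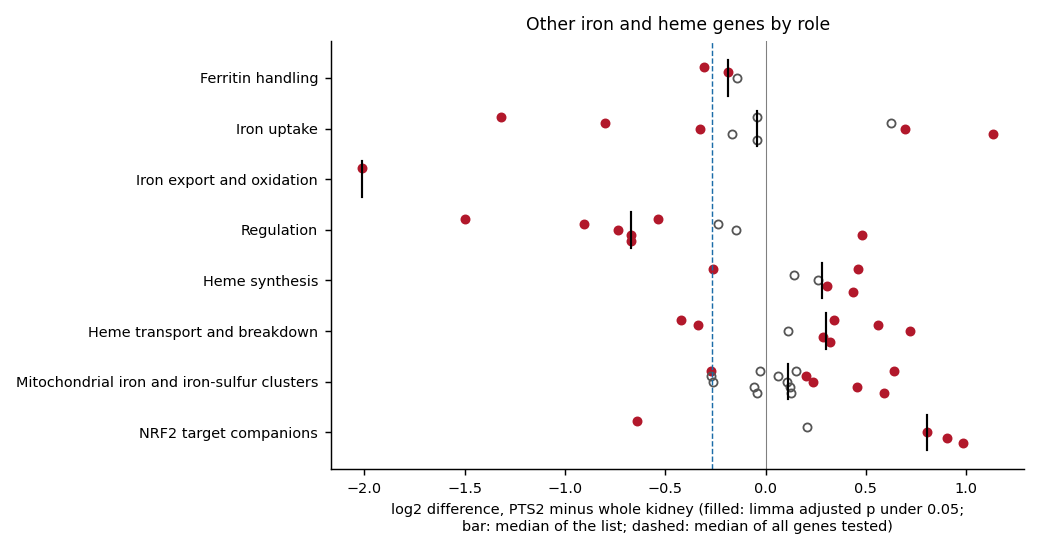
log2 difference of PTS2 minus whole kidney (horizontal axis, limma estimate) for each tested gene of the wider iron and heme lists, by role. Filled points have an adjusted p under 0.05, the short bar is the median of the list and the dashed line the median of all genes tested, -0.27. Alas2, Lcn2 and Heph are left out. The list medians run from -2.01 (export and oxidation, Cp alone) and -0.67 (regulation) to 0.80 (NRF2 companions).

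On the uptake side, 2 of 9 genes were higher and 3 lower (list median -0.05), or 4 and 2 with median-of-ratios rescaling and 3 and 3 with quantile normalization. Slc39a8 (ZIP8), a metal importer that also carries iron, was higher at 73.8 ± 24.2 TPM in PTS2 and 31.5 ± 1.52 in kidney (log2 difference 1.13 ± 0.27, limma adjusted p = 0.00206). Lcn2, which binds siderophores with their iron, was 0.05 ± 0.08 TPM in PTS2 and 5.74 ± 1.80 in kidney. Its receptor Slc22a17 was 9.57 ± 1.32 against 17.3 ± 1.56 TPM (-0.80 ± 0.13), and the metalloreductase Steap2 was 18.6 ± 5.51 against 46.1 ± 3.21 TPM (-1.32 ± 0.23). The endocytic receptors Lrp2 and Cubn, through which filtered transferrin and Lcn2 enter the cell, were 99.1 ± 13.05 against 101 ± 3.32 and 27.1 ± 3.82 against 27.8 ± 1.29 TPM, and neither was called.

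Of the ferroxidases, which oxidise iron as ferroportin releases it, Heph was 0.10 ± 0.14 TPM in PTS2 and 5.41 ± 0.899 in kidney. Cp, ceruloplasmin, the other one with a test, was lower in PTS2, at 4.76 ± 3.91 against 18.3 ± 2.52 TPM (-2.01 ± 0.47, limma adjusted p = 0.0021). Cp also differed among the tubule sets, at 1.84 ± 0.944 TPM in m1 and 8.92 ± 4.03 in m3 (1.76 ± 0.34, limma adjusted p = 0.0151, 0.0586 without m3 replicate 1 and 0.0663 with no filter).

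Of the regulators, 1 of 9 was higher and 6 lower (list median -0.67), with 4 lower under median-of-ratios rescaling and 3 under quantile normalization. Aco1, which as IRP1 binds the hairpins printed above when it holds no iron-sulfur cluster, was 252 ± 34.9 TPM in PTS2 and 178 ± 7.52 in kidney (0.48 ± 0.12, limma adjusted p = 0.00252). The other hairpin-binding protein, Ireb2 (IRP2), was 10.9 ± 2.28 against 17.7 ± 2.03 TPM and was called lower with TPM as deposited but not with quantile normalization (-0.21, adjusted p = 0.200). Epas1 (HIF-2 alpha), whose message also carries such a hairpin, was 2.37 ± 0.41 against 8.49 ± 0.916 TPM (-1.50 ± 0.13, adjusted p = 6.67e-08), and Hfe, a partner of the transferrin receptor, was 10.7 ± 1.40 against 20.8 ± 0.607 (-0.91 ± 0.12). Hamp and Hamp2, the hepcidin genes, whose product is the ligand that removes ferroportin from the membrane, were listed at 0 in all 15 libraries.

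In heme synthesis 3 of 6 genes were higher and 1 lower (list median 0.28), and 5 and 0 under both other scalings. Alas2, the isozyme of red cell precursors, was 0.11 ± 0.11 TPM in PTS2 and 5.11 ± 1.95 in kidney, and it stands among the red blood cell markers given above. Alas1 thus made up nearly all of the message for this step in tubules. In heme transport and breakdown 5 of 8 were higher and 2 lower (list median 0.30), or 6 and 0 with median-of-ratios rescaling and 5 and 1 with quantile normalization. Slc46a1, a folate carrier that also moves heme, was 88.9 ± 16.1 against 52.7 ± 1.68 TPM (0.72 ± 0.16, adjusted p = 0.0012), and Abcb6, a porphyrin transporter, was 62.1 ± 7.92 against 41.7 ± 5.32 (0.56 ± 0.12). The constitutive oxygenase Hmox2 averaged 82.2 ± 3.30 TPM in PTS2, above the 46.8 ± 9.25 of Hmox1, and was called lower than in kidney, where it was 110.2 ± 4.87.

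In mitochondria iron is joined to sulfur and is inserted to make heme. In the mitochondrial list 5 of 16 genes were higher and 1 lower (list median 0.11). The counts were 12 and 0 with median-of-ratios rescaling and 10 and 0 with quantile normalization. The cysteine desulfurase Nfs1 was 298 ± 21.0 TPM in PTS2 and 190.5 ± 1.01 in kidney (0.64 ± 0.07, limma adjusted p = 6.62e-07), and the scaffold Iscu was 513 ± 33.6 against 340.2 ± 11.2 (0.59 ± 0.07, limma adjusted p = 1.07e-06). Hmox1 is a target of NRF2, and 5 other targets of that factor were tested, of which 3 were higher and 1 lower (list median 0.80), and 4 and 1 under both other scalings. Nqo1 was 142 ± 19.9 against 71.2 ± 9.29 TPM (0.98 ± 0.12), and Gclm was 923 ± 109.6 against 490.1 ± 41.3 (0.91 ± 0.11). Of the ferritin handling genes, 2 of 3 were called lower (list median -0.19), none with median-of-ratios rescaling and 1 with quantile normalization. The iron chaperone Pcbp1, the most abundant of them, was 135 ± 10.1 against 154 ± 2.91 TPM, and its difference changed sign with median-of-ratios rescaling (0.10).

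Among the PTS2 sets, the F test called 2 of the wider list's 57 tested genes, Slc39a14 and Cp, which is 3.51% against 3.02% of all genes. Slc39a14 (ZIP14), an importer of iron not bound to transferrin, was 28.6 ± 10.4 TPM in m1 and 68.0 ± 18.3 in m3 (1.25 ± 0.27, limma adjusted p = 0.0261). That call was lost without any of 6 single libraries, m1 replicates 2, 3 and 4 and m3 replicates 1, 2 and 3 (adjusted p from 0.0504 to 0.0922), and with no filter (0.106). Nqo1 was 124 ± 11.3 against 162 ± 7.96 TPM in m1 and m3 (0.38 ± 0.09, limma adjusted p = 0.0434), a call lost with median-of-ratios rescaling (adjusted p = 0.0671), without the mean-variance trend (0.0825), with no filter (0.117) and without m1 replicate 2, 3 or 4, m2 replicate 2 or 4, or any library of m3 (adjusted p from 0.0594 to 0.141). The limma F test among the sets did not call Nqo1 (adjusted p = 0.0941). Its m3 minus m1 estimate had the opposite sign to that of Hmox1, whose call was also lost without some single libraries.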

How the data were processed

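RNA-Seq of 12 PTS2 tubule libraries and 3 whole kidney libraries was analysed from 1 table of TPM values as deposited by the authors. Per the labels' protocols, cDNA was made with a kit for very low input. The submitters' processing notes name STAR 2.5.1b, RSEM 1.2.31 and GRCm38.p5, without their roles. TPM keep no depth, so the depth is unknown, no counting interval or detection limit is given, and no test made for counts was run. Another 4 columns, the authors' means and errors, were left aside.

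Libraries were grouped by their description labels. Genes averaging at least 1 TPM over the libraries of a fit were tested on log2(TPM + 1) with limma 3.58.1 in R 4.3.3 (mean-variance trend, Benjamini-Hochberg adjustment, threshold 0.05). PTS2 was compared with whole kidney with the set as a correlated block (12039 genes, within-set correlation 0.0669), and the sets by an F test and pairwise contrasts (11300 genes). Both fits were tested on simulated data. Its libraries were drawn independently with no likeness within a set, so it could not check how the fit handles the within-set correlation. Ferritin measures used exact permutation tests in Python 3.11.15. The members and lists were chosen with earlier results of these data known. Of the wider lists, genes named in each comparison were those called without overlap of libraries, at most 8 per direction by size, and the most abundant gene of a role without any. Lrp2, Cubn, Ireb2, Hmox2, Hamp and Hamp2 were named outside this rule, after their values were seen. Hjv, Flvcr1, Flvcr2 and Fdx2 were not analysed here, and a result on 1 further gene is not reported here. Sequences came from GENCODE M21. The alternatives were other pseudocounts, filters, scalings and fits, and each library left out in turn.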

Additional observations from a re-analysis of the deposited data

Results flagged for a closer look

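For each of the 9 genes and for the ferritin ratio and sum, the highest and lowest library of each set of 4 was compared with the rest of its set, 33 groups in all. A library was picked out when its gap to the nearest other as a share of the set's whole range passed Dixon's critical value for 4 samples. Chance picks about 1 in 20 groups, and 5 of the 33 were picked.

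In m3, replicate 4 was picked for 3 genes. Its Tfrc level was 46.22 TPM where the next was 28 TPM, its Slc11a2 level 62.76 where the next was 51.12, and its Alas1 level 703.08 where the next was 561.33. The Alas1 difference of m3 from both other sets was called without that library too. Replicate 2 of m1 had 3.46 TPM of Trf, where the next library had 1.63. Replicate 1 of m2 had 54.08 TPM of Hmox1, where the next had 48.95.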

How the results depend on the processing

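The filter moved the counts of called genes: 9399 genes differed between PTS2 and whole kidney with no filter and 3113 with a mean of at least 10 TPM, against 6161, and 196 among the sets with no filter, against 341. These settings test more or fewer genes. Leaving out single libraries gave 4761 to 6712 genes between PTS2 and kidney and 197 to 563 among the sets: 563 without m1 replicate 1, 220 without m2 replicate 2, and 197, 226 and 209 without m3 replicates 1, 2 and 3. With the replicate block 888 genes were called among the sets, and Slc40a1 joined the called members (limma adjusted p = 0.0023). Deviations of same-numbered libraries from their set means correlated at 0.0254 to 0.273, on average 0.143. Other pairs averaged -0.0481, which is no separate evidence, because deviations cancel within a set and this ties the averages together. Of 12 libraries, 10 correlated best with their own number, a hint in the data that same-numbered libraries deviate together. Only 7 of 12 pairs were above 0.1, where the condition for a paired analysis was all 12, and the labels tie the numbers to nothing shared. The ferritin ratio among the sets, permuted within numbers (replicate block), gave an exact p of 0.00463.

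The ratio's log2 difference from kidney was 0.75 with 1 mean per set (exact permutation p = 0.1, the smallest possible) and 0.70 to 0.80 with single libraries left out. Among the sets it was 0.55 to 0.74, lowest without m1 replicate 4 (exact permutation p = 0.061). The ferritin sum's difference ran from -0.015, reversed without kidney replicate 2, to 0.085. That range does not cover median-of-ratios rescaling or quantile normalization, under which the sum was not tested. Uncalled differences from kidney also turned. Alas1 went to 0.28 with median-of-ratios rescaling and ran from -0.28 to 0.20 with single libraries left out, and Hmox1 from -0.037 to 0.32. Pcbp1 went to 0.10 with median-of-ratios rescaling. Among the sets, uncalled contrasts near 0 turned as well: Tfrc m3 minus m1 went from 0.07 to -0.01 with median-of-ratios rescaling and -0.02 with quantile normalization, Fech m3 minus m1 from 0.05 to -0.04 with median-of-ratios rescaling, which turned its other contrasts too, and Trf m3 minus m2 from 0.04 to -0.07 with a pseudocount of 0.1. The causes were not tested. Heph and Alas2 gave no value with median-of-ratios rescaling because they fell under the filter. With no filter, Ftl1 (0.0538) and Hmox1 (0.0796) missed the limma F test's threshold among the sets, and Fth1 (0.0857) and Ftl1 (0.0638) that against kidney. Fth1 also missed it with the 10 TPM filter (0.064), without mitochondrial genes (0.0632) and without the mean-variance trend (0.0561). TPM without depth set no limit of detection, so low values such as those of Trf, Lcn2 and Heph carry no counting error.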

Other observations

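Beyond the 2 main ferritin genes, the table lists further ferritin rows. Ftmt, the mitochondrial ferritin gene, and the 6 genes and 3 pseudogenes of the Fthl17 family were listed at 0 in all libraries. The pseudogene rows Ftl1-ps2, Ftl2-ps and Fth-ps2 averaged 0.535, 0.404 and 0.144 TPM in PTS2 and 0.647, 0.440 and 0.297 in kidney.

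The most abundant gene of the wider iron and heme lists, named after its values were seen, was Slc25a39, a carrier that brings glutathione into mitochondria. It averaged 1499.8 ± 125.6 TPM in PTS2 (SD, n = 12) and 1092 ± 52.2 in whole kidney (SD, n = 3). Abcg2, an exporter that can carry porphyrins, followed among the heme transporters at 674 ± 63.3 against 621 ± 37.0 TPM.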
